A study of Rattus norvegicus with 20 samples.

Results

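The apex of the right ventricle was compared between male Sprague Dawley rats of about 350 g with chronic pulmonary embolism (PE) and vehicle rats, on 10 of the 20 Affymetrix arrays of the series. PE rats had been injected in the right jugular vein with polystyrene microspheres of 25 micron in 0.01% Tween-20, at 2000000 per 100 g of body weight, and vehicle rats with 0.01% Tween-20 alone. The right ventricle was taken 6 weeks later and split into apex and outflow tract (base), which gave 5 apex and 5 outflow arrays per treatment. The 10 arrays were those labelled as apex, 5 with PE and 5 with vehicle, and the other 10 entered the model and served to test where the PE effect differed between the regions. The microspheres are inert particles lodged in the lung vessels, not clots.

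When vessels of the lung are blocked, the right ventricle pumps against a higher pressure. Heart muscle under stretch makes natriuretic peptides, hormones that promote salt excretion and relax vessels, while fibroblasts lay down collagen, elastic microfibrils and matricellular proteins, which are secreted regulators of how cells hold on to matrix. Healthy heart muscle draws most of its energy from fatty acids oxidised in mitochondria, and loaded hearts are known to shift towards glucose.

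The apex arrays were of like quality: the median signal was 124.04 to 138 on vehicle and 129.04 to 139 on PE arrays, the ratio of 3' to 5' GAPDH signal, which rises with short RNA, was 1.44 to 1.83 and 1.47 to 1.67, and the mean correlation with the other arrays of the group was 0.962 to 0.971. The brightest probe set of an array reached 66962 to 79487 on vehicle but 53629 to 65131 on PE arrays, without overlap. Markers of ventricular muscle were high on all 10 arrays, with a summed signal of 430717 to 496465 over 11 genes in vehicle and 369456 to 439515 in PE rats. Markers of the atrium set single arrays apart. Myl7, the atrial regulatory light chain, had a signal of 11732 on PE replicate 5, against 181 to 1023 on the other PE arrays and 219 to 1868 on the vehicle arrays, where replicate 2 was the highest. The summed signal of 8 atrial markers was 24039 on PE replicate 5, 3485 to 6896 on the other PE arrays and 3996 to 6955 in vehicle rats. Spp1 (osteopontin) was at 4366 and 1422 on vehicle replicates 2 and 3 and at 179 to 466 on all other apex arrays. The results that rest on PE replicate 5 and vehicle replicate 2 are given with and without both, and the part of atrial tissue in them was not tested further.

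The first question was which genes the apex expressed at another level after PE. By limma, which fits a linear model with moderated variances to log2(signal + 16) over all 20 arrays, 4 of 31042 probe sets were called higher at a Benjamini-Hochberg adjusted p under 0.05 (0.0129%; 0.0211% of genes) and 0 were called lower (0.0%), with 2320 (7.47%) at an unadjusted p under 0.05. Without PE outflow replicate 2, an array of another region that enters the fit through the shared spread and had a GAPDH ratio of 6.12, 29 were called higher and 1 lower, among them Ccn5, Col8a2, Thbs4, Adamtsl2, Pi16, Islr, Fbln2, Nbl1, Col8a1, Mfap5, F13a1, Fstl1, Lbp, Serpinf1 and C1qa. This alternative was chosen after seeing the data, and the adjusted p-values below are those of the fit of all 20 arrays, in which the 4 called were Nppa, Sbsn, Mfap4 and 1390498_at, which has no symbol and a low signal.

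Nppa encodes atrial natriuretic peptide. Its signal on vehicle arrays 1 to 5 was 876, 563, 1588, 435 and 941, and on PE arrays 1 to 5 it was 9457, 2888, 15897, 16176 and 24985. The lowest PE array, replicate 2, was above the highest vehicle array, and the PE arrays spanned a wider range than the vehicle arrays. Values after ± here and below are SEs of the fit of all 20 arrays, in which the 4 groups share the estimate of the spread. They do not give the spread of the apex arrays alone. Nppa rose by 3.78 ± 0.48 on the log2 scale (n = 5 rats in each group), a 13.8-fold increase with a limma adjusted p of 0.00591. This call held without any single apex array. Without PE replicate 5 and vehicle replicate 2, the fold change was still 3.37 on the log2 scale, but the call was lost (limma adjusted p = 0.123), and in a fit of only the 10 apex arrays it was 3.78 with an adjusted p of 0.0979.

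Sbsn encodes suprabasin, a secreted protein known from the epidermis. It measured 212, 161, 269, 238 and 259 on the vehicle arrays and 740.5, 796, 703, 1517 and 990.0 on the PE arrays, a rise of 3.85-fold (log2 1.95 ± 0.29, limma adjusted p = 0.0212). Mfap4, a glycoprotein that binds elastic fibres, measured 2986, 3966, 2841, 2923 and 2962 in vehicle and 8236, 4572, 6859.6, 6842 and 7200.5 in PE rats, a rise of 2.12-fold (log2 1.09 ± 0.17, limma adjusted p = 0.0212). For neither gene did the groups overlap. The probe set without a symbol, 1390498_at, lay at 13.7, 6.09, 24.8, 1.90 and 3.21 in vehicle and at 52.5, 52.0, 49.2, 53.1 and 49.0 in PE rats (log2 1.44 ± 0.20, limma adjusted p = 0.0156). These levels are among the dimmest of the array, and the name of its transcript is not given in the annotation used here. When the 10 apex arrays were fitted alone, Sbsn kept its call (limma adjusted p = 0.0433), while Mfap4 and 1390498_at, like Nppa, did not (0.0979 each), and Cp and C2cd4a, named here after their values were seen, were called higher. With single arrays left out of the fit of all regions, Sbsn lost its call without any one of the 5 vehicle arrays or PE replicates 1, 4 or 5 (adjusted p = 0.0501 to 0.109), Mfap4 without vehicle replicates 1, 3, 4 or 5 or PE replicates 1, 3, 4 or 5 (0.0516 to 0.115), and 1390498_at without vehicle replicates 4 or 5 or PE replicates 1, 4 or 5 (0.0501 to 0.0723), all with the same direction.

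**Figure D1:**
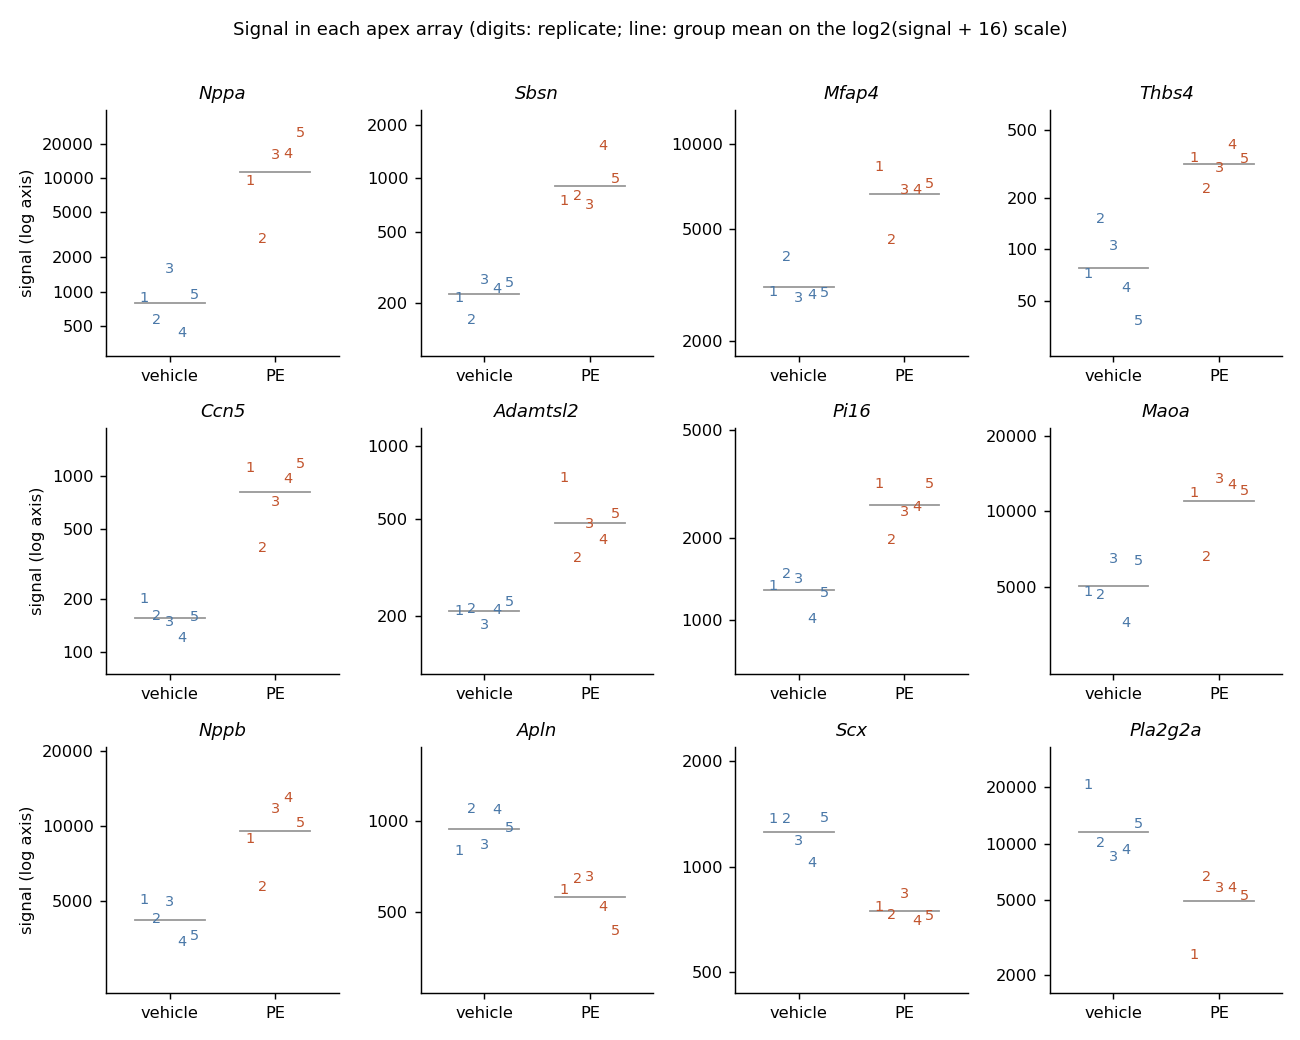
Signal of 12 genes on each apex array, on log axes, with vehicle arrays on the left and PE arrays on the right of each panel; digits give the replicate number and lines the group mean on the log2(signal + 16) scale. The 5 PE arrays lie above all vehicle arrays for the first 9 genes and below them for Apln, Scx and Pla2g2a, and PE replicate 2 is the lowest PE array for Nppa, Mfap4, Thbs4, Ccn5, Adamtsl2, Pi16, Maoa and Nppb.

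Beyond the calls, the groups could be compared array by array. Of the probe sets, 1.56% had all 5 PE arrays above and 1.5% all 5 below all vehicle arrays. Of 14217 genes, each represented by its brightest probe set, 311 had all 5 PE arrays above all 5 vehicle arrays (2.19%) and 311 had all 5 below (2.19%). A single gene without overlap has an exact two-sided permutation p of 0.00794, the smallest that 5 against 5 arrays can give. Of the 8182 genes with a mean log2 signal above 8 in an apex group, 245 were above and 289 below. The 20 genes with the smallest p on each side are described next, and apart from Nppa, Sbsn and Mfap4 none of these passed the adjusted threshold.

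Besides Mfap4, the higher genes included Thbs4, Ccn5, Adamtsl2, Fbln2, Col8a1, Col8a2, Mfap5 and Ltbp2, which encode microfibril, collagen or matricellular proteins. Thbs4, thrombospondin 4, measured 71.3, 149.9, 105, 59.7 and 38.0 in vehicle and 340.4, 226, 297, 409 and 334 in PE rats (log2 1.83 ± 0.31, limma adjusted p = 0.0713). Ccn5, a matricellular protein of the family of connective tissue growth factor, measured 199.7, 160.3, 149, 119.7 and 159 against 1112, 389, 711, 970.3 and 1173 (log2 2.27 ± 0.40, adjusted p = 0.0833). The vehicle arrays kept within a narrow range for Ccn5, while PE replicate 2 lay well under the other PE arrays. Adamtsl2, a secreted protein that binds fibrillin microfibrils, measured 209.6, 215, 185, 213 and 228 against 738, 346, 479, 411 and 524 (log2 1.15 ± 0.21, adjusted p = 0.0833). Ltbp2, a latent TGF-beta binding protein of microfibrils, was at 23.3 to 177 in vehicle and at 263 to 452 in PE rats (log2 2.03 ± 0.41, adjusted p = 0.119). Col8a1 and Col8a2, the chains of a short network-forming collagen, had 1.33 ± 0.26 and 1.31 ± 0.29 (adjusted p = 0.0918 and 0.16). Fbln2 and Mfap5, a fibulin and a microfibril glycoprotein, had 0.63 ± 0.12 and 0.80 ± 0.15.

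The other higher genes included further products of stromal cells. Pi16, a surface protein of fibroblasts, measured 1331, 1474, 1418, 1009 and 1259 in vehicle and 3162, 1964, 2481, 2604 and 3153 in PE rats (log2 1.02 ± 0.19, limma adjusted p = 0.0833), and a dimmer probe set of the gene had 1.58. Islr, a membrane protein of stromal cells, had 1.15 ± 0.21, and Fstl1, a secreted glycoprotein, 0.88 ± 0.18. The dimmer probe sets of Fstl1 had 0.77 ± 0.16 without overlap and 0.62 ± 0.36 with overlap. Nbl1, a secreted antagonist of bone morphogenetic proteins, had 0.60 ± 0.11, and Tgfb3, one of the TGF-beta ligands, 0.67 ± 0.14. F13a1, the A subunit of clotting factor XIII, also a product of resident macrophages, had 0.90 ± 0.17, while its dimmer probe set overlapped between the groups at 0.87 ± 0.30. Lbp, a plasma protein that binds lipopolysaccharide, had 1.05 ± 0.22, and Csrp2, a LIM domain protein of smooth muscle, 0.69 ± 0.14. Maoa, the mitochondrial monoamine oxidase that degrades noradrenaline and serotonin, stood out by its level: it measured 4762, 4632, 6450.4, 3571 and 6348 in vehicle and 11885, 6567, 13425, 12712 and 12067 in PE rats (log2 1.13 ± 0.24, adjusted p = 0.147). PE replicate 2 lay just above the highest vehicle array, and the other 4 PE arrays far above it. Over these 20 genes, replicate 2 was the lowest PE array for 16 and the highest for 0, and 21 probe sets were called higher without it.

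The 20 lower genes had smaller fold changes, from -0.32 to -1.33 on the log2 scale, and the smallest adjusted p of any gene or probe set below 0 was 0.119. They share no obvious family. Apln, apelin, a peptide that raises contractility, measured 796, 1093, 834, 1086 and 943 in vehicle and 594, 645, 651, 522 and 436 in PE rats (log2 -0.73 ± 0.17, limma adjusted p = 0.177). Its dimmer probe set had -0.25 ± 0.26 and overlapped between the groups. Scx, scleraxis, a transcription factor of tendon and cardiac fibroblasts, measured 1366, 1367, 1188, 1026 and 1377 against 767, 729, 836, 698 and 722 (log2 -0.73 ± 0.16, adjusted p = 0.165). Pla2g2a, a secreted phospholipase A2 of acute inflammation, measured 20592, 10058, 8487, 9312 and 12734 against 2578, 6701, 5814, 5860.0 and 5252 (log2 -1.21 ± 0.34, adjusted p = 0.344), with vehicle replicate 1 the highest and PE replicate 1 the lowest array. Foxl2, a transcription factor known from the ovary, measured 202 to 348 in vehicle and 23.4 to 165 in PE rats (log2 -1.33 ± 0.36).

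Metabolic enzymes among the lower genes were Pdk1, a kinase that switches off pyruvate dehydrogenase (-0.47 ± 0.12, but 0.00 ± 0.23 for a dimmer probe set of the gene), Acsf2, a mitochondrial acyl-CoA synthetase (-0.55 ± 0.15), Urod, an enzyme of haem synthesis (-0.32 ± 0.09), and Gchfr, the feedback regulator of tetrahydrobiopterin synthesis (-0.56 ± 0.15). Exosc4, a subunit of the RNA exosome, measured 524 to 664 in vehicle and 302 to 424 in PE rats (-0.61 ± 0.14, adjusted p = 0.162). Nfyc, a subunit of the CCAAT-binding factor NF-Y, had -0.39 ± 0.09, with -0.09 ± 0.23 for its dimmer probe set. Tnik, a kinase of the Wnt pathway, had -0.59 ± 0.18, and its other 3 probe sets had -0.78, -0.44 and -0.25. The remaining lower genes were Rab30, a GTPase of the Golgi (-0.55), Cradd, a death domain adaptor (-0.43), Carmil3, a regulator of actin capping (-0.82), Snhg4, a host of small nucleolar RNA (-0.38), Ap4s1, a subunit of a vesicle adaptor (-0.40), Naa38, a subunit of an acetyltransferase (-0.36), and Nudt6 (-0.45), Csdc2 (-0.60) and Samd13 (-0.43).

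Of the stretch and fetal genes, Nppb, which encodes brain natriuretic peptide, is a chromosomal neighbour of Nppa. In RefSeq's GRCr8 assembly both genes lie on the forward strand of chromosome 5, and the start of Nppa is 12176 bases beyond that of Nppb. The 250 bases before each start are shown, since these neighbours were both higher on all 5 PE arrays. Capitals mark matches, on either strand, to GATAA, the core bound by GATA factors, CATTCC, the core bound by TEAD factors, and TATAAA, the TATA box.
Nppa, chr5:163711934-163712183: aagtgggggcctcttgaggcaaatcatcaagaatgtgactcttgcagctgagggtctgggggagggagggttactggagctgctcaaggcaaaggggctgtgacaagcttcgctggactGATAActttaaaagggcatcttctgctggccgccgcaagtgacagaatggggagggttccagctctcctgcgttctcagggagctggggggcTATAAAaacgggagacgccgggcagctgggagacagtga
Nppb, chr5:163699758-163700007: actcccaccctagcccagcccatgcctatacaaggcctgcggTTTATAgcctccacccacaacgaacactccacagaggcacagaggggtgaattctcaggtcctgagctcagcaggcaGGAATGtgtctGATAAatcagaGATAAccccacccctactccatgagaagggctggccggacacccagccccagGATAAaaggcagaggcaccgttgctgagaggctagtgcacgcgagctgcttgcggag
The Nppa window holds 1 GATAA, beginning 131 bases before the start, and 1 TATAAA, beginning 39 bases before it. The Nppb window holds 3 GATAA, beginning 120, 109 and 57 bases before the start, 1 CATTCC on the reverse strand (read as GGAATG) and 1 TATAAA on the reverse strand (read as TTTATA) 208 bases before it. Of 33469 such windows in the table, GATAA is in 23.5%, CATTCC in 12.1% and TATAAA in 12.9%. Of the 17 genes among the 20 higher ones that the table lists, 3 have GATAA, 1 has CATTCC and 2 have TATAAA. These matches are letters, not shown binding sites.

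Nppb measured 5064, 4255, 4951, 3429.8 and 3612 in vehicle and 8895, 5716, 11766, 13026 and 10313 in PE rats (log2 1.18 ± 0.26, limma adjusted p = 0.16). All 5 PE arrays were above the vehicle arrays, and without PE replicate 2 the gene was called. Both peptides were thus lowest on PE replicate 2, but Nppa was highest on replicate 5 and Nppb on replicate 4. Myl4, the atrial essential light chain that the fetal ventricle also makes, measured 137, 222, 224, 126 and 112 in vehicle and 593, 339.8, 474, 613 and 6530.2 in PE rats (log2 2.29 ± 0.65, adjusted p = 0.346). All PE arrays were above all vehicle arrays, also without replicate 5, and with replicate 5 and vehicle replicate 2 left out the value was 1.66 (adjusted p = 0.497). Sln, sarcolipin, the atrial regulator of the calcium pump, went from 682 to 3811 on the vehicle arrays and from 13.2 to 2800.5 on the PE arrays, with overlap. Myl7 itself had 0.97 ± 0.94.

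The 36 measured genes of the natriuretic and fetal programme had a median log2 fold change of 0.09, against 0.0024 over all genes, and 1 was called (Nppa). All PE arrays were above all vehicle arrays for 5 of the 36 and below for 2, which became 7 and 0 under quantile normalization. Ccn2, connective tissue growth factor, measured 1921, 2673, 3813, 1992 and 2311 in vehicle and 4500.5, 3605, 8679, 6539 and 5692 in PE rats (log2 1.17 ± 0.25, adjusted p = 0.149), where vehicle replicate 3 overlapped with PE replicate 2. Rcan1, an inhibitor of calcineurin, had 0.70 ± 0.23. Of the major myosin genes, the brightest probe set of Myh6 (fast, adult) had -0.20 ± 0.20. It measured 45288 to 51634 in vehicle and 39146 to 46043 in PE rats, where only PE replicate 4 lay inside the vehicle range. The brightest probe set of Myh7 (slow, fetal in the rat) stood near 0, at 0.03 ± 0.25. The dimmer probe sets of Myh6 and Myh7 had -0.26 ± 0.42 and 0.67 ± 0.39. The brightest ones measured 39146 to 51634 and 35351 to 44786, near the top of the arrays. In the outflow tract these had -0.65 and -0.35, and the dimmer ones -3.44 and -1.53. Whether the bright probe sets understate changes was not tested. Acta1, skeletal actin, had 0.22 ± 0.20, and Ankrd1, a stretch-regulated nuclear protein, -0.08 ± 0.17. Des, desmin, was lower on all 5 PE arrays as deposited (-0.31 ± 0.14), but overlapped under quantile normalization. Acta2, smooth muscle actin, had 0.64 ± 0.29 with overlap. So the rise of Nppa was not accompanied by a called change of myosin or skeletal actin in the apex. As only 4 of 31042 probe sets were called at all, the lack of a call does not show that these genes were unchanged.

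Of 25 measured genes of the elastic fibre and microfibril list, 25 had a fold change above 0 (50.5% of all genes did), 10 had all PE arrays above all vehicle arrays and 0 had all below, with a median log2 fold change of 0.37 and 1 gene called (Mfap4). Fbn1, fibrillin 1, the backbone of the microfibril, measured 1910.5, 2428, 1856, 1412 and 2081 in vehicle and 2939.8, 2446, 3648, 3122 and 3638 in PE rats (log2 0.71 ± 0.18, limma adjusted p = 0.254). PE replicate 2 lay just above vehicle replicate 2, the highest vehicle array. Loxl1, which crosslinks elastin, had 0.71 ± 0.19, with overlap. Aebp1, a secreted collagen-binding protein counted with the matricellular genes, had 0.62 ± 0.15 without overlap, and its dimmer probe set 0.27 ± 0.39 with overlap. The number of 10 was the same under quantile normalization and with each array centred on its median, but under each of these 2 members had a fold change below 0.

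The 27 collagens measured had a median of 0.32, with 3 above and 0 below without overlap. The fibrillar collagens of scar, Col1a1, Col1a2 and Col3a1, had 0.62 ± 0.18, 0.56 ± 0.18 and 0.39 ± 0.12 (limma adjusted p = 0.346, 0.394 and 0.375), each with overlap between the groups, while the type VIII chains had no overlap. The dimmer probe set of Col1a1 had 0.22 ± 0.27 and that of Col1a2 0.58 ± 0.21, both with overlap. Enzymes that modify collagen included P4ha1, a prolyl hydroxylase (0.50 ± 0.18), and Plod2, a lysyl hydroxylase (0.59 ± 0.24), the 2 of 19 that were above without overlap. Of 12 small leucine-rich proteoglycans, which coat collagen fibrils, 12 had a fold change above 0, and Omd (0.77 ± 0.32) and Aspn (0.76 ± 0.30) did not overlap. Matricellular genes gave 4 above and 0 below of 37, with a median of 0.33. Postn, periostin, a product of activated fibroblasts, had 0.60 ± 0.46, with vehicle replicate 5 at 1272 above all PE arrays, and Comp, a cartilage matrix protein, -0.44 ± 0.39. Of 40 proteases and inhibitors, 5 were above and 0 below: Serpinf1, an antiangiogenic serpin, had 0.69 ± 0.20, Fap, a protease of activated fibroblasts, 0.43 ± 0.12 and Timp2 0.32 ± 0.10. Timp1, the inhibitor usually induced in injury, overlapped at 0.48 ± 0.26.

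**Figure D2:**
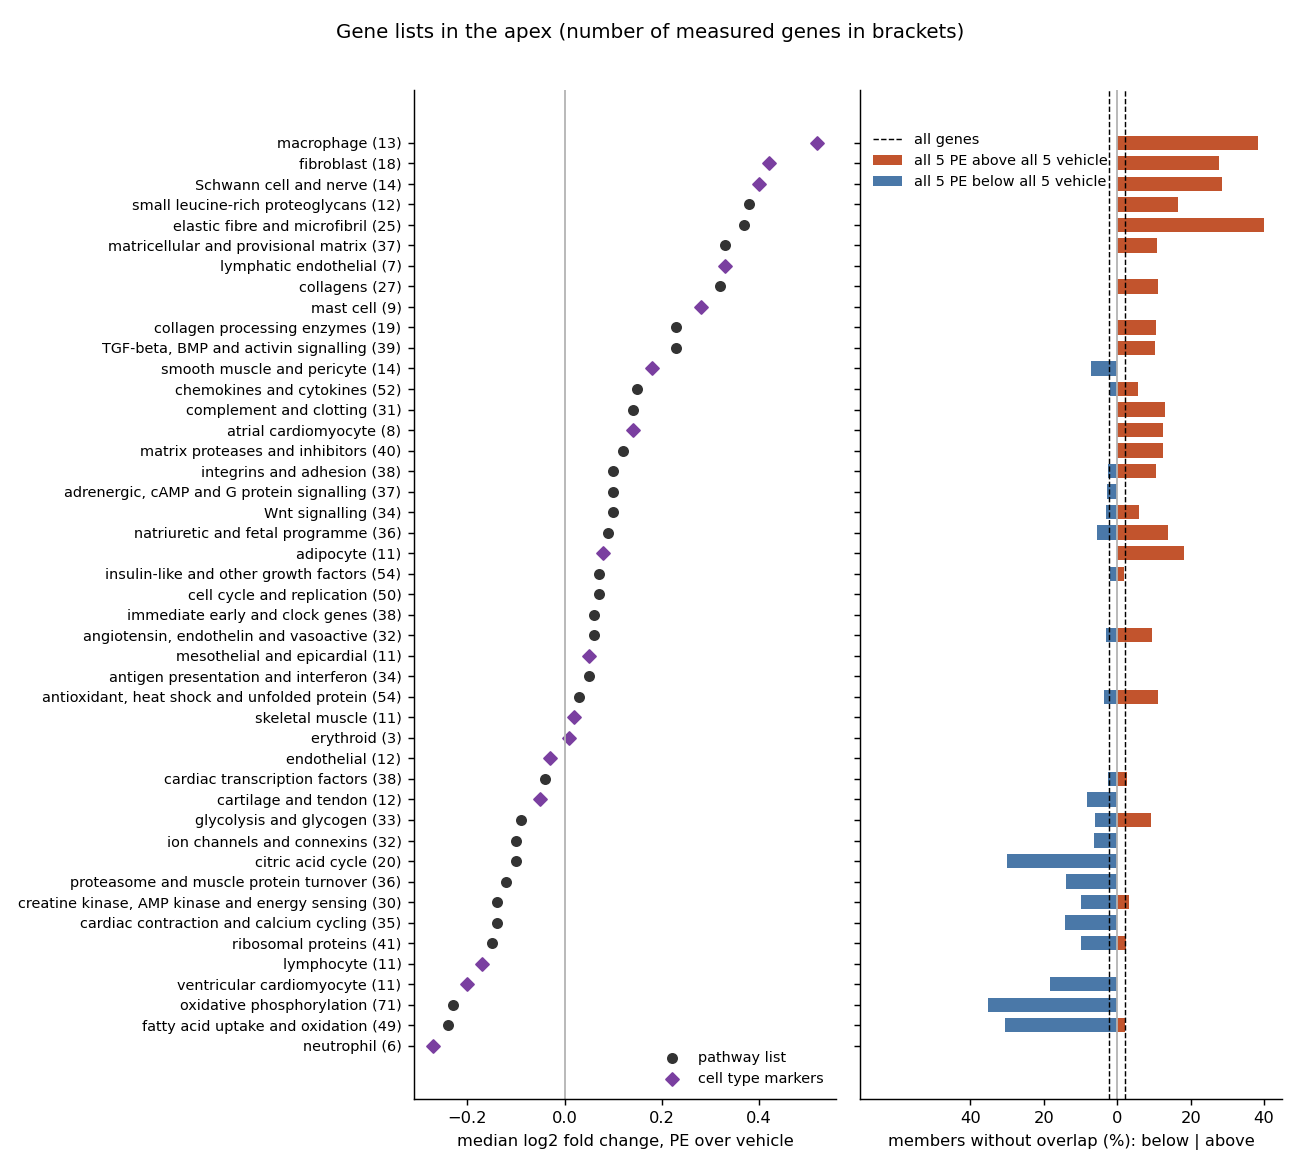
Median log2 fold change of PE over vehicle for 45 gene lists (left, circles for pathways and diamonds for cell type markers) and the percentage of measured members for which all 5 PE arrays lay above (right of 0) or below (left of 0) all 5 vehicle arrays, with dashed lines at the 2.19% of all genes. Macrophage markers have the highest median (0.52) and neutrophil markers the lowest (-0.27), followed by fatty acid oxidation (-0.24) and oxidative phosphorylation (-0.23), while the interferon, immediate early and cell cycle lists have 0 members without overlap.

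Signals upstream of matrix were spread over several ligands. Of 39 genes of TGF-beta, BMP and activin signalling, 0 were called, 4 were above and 0 below without overlap, and the median was 0.23. Tgfb3 measured 1086, 1249, 1018, 1301 and 993 in vehicle and 2277, 1595, 1663, 1548 and 1964 in PE rats (log2 0.67 ± 0.14, limma adjusted p = 0.158). Tgfb2 had 0.47 ± 0.16 and Tgfb1 0.36 ± 0.14. Tgfb2 and Tgfb3 were free of overlap and Tgfb1 was not, and differences between the ligands were not tested. The dimmer probe set of Tgfb2 had 0.36 ± 0.18 with overlap. Grem1, a secreted BMP antagonist, was near the floor of the array, at 3.58 to 33.0 in vehicle and 3.42 to 26.4 in PE rats. Of 34 Wnt genes, 2 were above and 1 below. Sfrp2, a secreted Wnt modulator, measured 260.2, 331, 284, 188 and 256 against 1107, 599.9, 586, 541 and 979 (log2 1.44 ± 0.47, adjusted p = 0.428). Among 54 growth factor genes, 1 was above and 1 below without overlap, near the 2.19% of all genes on each side. The 1 above was Mdk, the heparin-binding growth factor midkine (0.59 ± 0.18). Igf1, insulin-like growth factor 1, had 0.12 ± 0.14 for its brightest probe set and 0.44 and 0.46 for the others, and Fgf16, a growth factor of heart muscle, -0.37 ± 0.21. Of 38 integrin and adhesion genes, 4 were above and 1 below without overlap. Those above included Itga11, a collagen receptor of fibroblasts (1.16 ± 0.33), Itgb4, a laminin receptor subunit (0.58 ± 0.16), and Itga5, the fibronectin receptor subunit (0.41 ± 0.13).

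Markers of stromal and immune cells were compared next. In these bulk samples, more cells of a type and more RNA per cell cannot be told apart. Some fibroblast markers (Mfap5, Fap, Dcn, Lum, Postn and the fibrillar collagens) are also matrix genes of the lists above. Of 18 fibroblast markers, 16 had a fold change above 0, 5 were above without overlap and 0 below, with a median of 0.42 and a summed signal of 118685 to 129526 in vehicle and 129538 to 160618 in PE rats. Dpt, dermatopontin, had 0.52 ± 0.12 and Cd248, endosialin, 0.73 ± 0.20 (limma adjusted p = 0.209 and 0.331), and the dimmer probe set of Cd248 had -0.03 ± 0.34. Other fibroblast markers overlapped between the groups, such as Dcn at 0.01 ± 0.13 and Lum at 0.29 ± 0.17.

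Of 13 macrophage markers, 13 had a fold change above 0 and 5 were above without overlap, with a median of 0.52, the highest of the 45 lists in the fit as deposited. Csf1r, the receptor of the macrophage growth factor, measured 1201, 1214, 1119.8, 879 and 1123 in vehicle and 2003, 1458, 1505, 1774 and 1694 in PE rats (log2 0.60 ± 0.18, adjusted p = 0.367). Adgre1, a surface receptor of macrophages, measured 239, 222, 341, 302 and 272 against 569, 478, 403, 374 and 438 (0.69 ± 0.24), and Mrc1, the mannose receptor of resident macrophages, had 0.65 ± 0.26. Cd68, the lysosomal marker, overlapped (0.25 ± 0.21). The vehicle array of replicate 4 was the lowest of the list, with a mean 0.34 under the vehicle mean, against at most 0.05 under it for the other vehicle arrays. The summed signal of the 13 genes was 9738 to 15093 in vehicle and 15879 to 21159 in PE rats. The 6 neutrophil markers measured were all below 0 in fold change, with a summed signal of 78 to 242 in vehicle and 52 to 96 in PE rats, at the floor of the array, and of 11 lymphocyte markers none was without overlap.

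Complement genes were among those free of overlap. C1qa and C1qc, subunits of the first complement component, had 0.78 ± 0.23 and 0.57 ± 0.22, and Cfd, factor D of the alternative pathway, 0.76 ± 0.23. All were without overlap, and with F13a1 these made 4 above and 0 below of 31 genes. C1qa and C1qc are also counted among the macrophage markers above, and Cfd among the adipocyte markers. Of 52 chemokines, cytokines and receptors, 3 were above and 1 below. Tnfrsf12a, the receptor of the cytokine TWEAK, measured 411, 484, 352, 295 and 267 in vehicle and 695, 514, 1232, 824 and 557 in PE rats (log2 1.01 ± 0.23, limma adjusted p = 0.171), and Cxcl16, a membrane-bound chemokine, had 0.61 ± 0.22. Ccl2, the classical chemokine for monocytes, overlapped at 0.23 ± 0.33. Of 34 genes of antigen presentation and interferon, 0 were without overlap in either direction, with a median of 0.05.

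Of 14 markers of Schwann cells and nerve, 10 had a fold change above 0 and 4 below, with a median of 0.40. Without overlap, 4 were above and 0 below. The list mean, relative to the vehicle mean, was -0.11 to 0.14 on vehicle and 0.14 to 0.50 on PE arrays. S100b, a calcium-binding protein of Schwann cells, measured 101, 118, 64.7, 55.2 and 43.5 in vehicle and 119, 166, 147, 153 and 206 in PE rats (log2 0.96 ± 0.24, limma adjusted p = 0.252). PE replicate 1 lay just above vehicle replicate 2, the highest vehicle array. Pmp22, a myelin protein that other cells also make, had 0.49 ± 0.14, and Ncam1, a neural adhesion molecule, 0.73 ± 0.21 with overlap, while a dimmer probe set of it had 1.59 ± 0.36 without overlap. Only 2 of the 14 had a mean log2 signal above 8 in vehicle rats, so most of this list was dim. Of 12 endothelial markers, 0 were without overlap, with a median of -0.03.

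Adipocyte markers differed between PE rats. Car3, carbonic anhydrase 3, measured 54.1, 71.6, 14.2, 34.3 and 41.9 in vehicle and 104, 693, 169, 186 and 1051 in PE rats (log2 2.52 ± 0.59, limma adjusted p = 0.197), while its dimmer probe set had -0.32 ± 0.52. Plin1, the coat protein of fat droplets, was at 126 and 228 on PE replicates 2 and 5 and at 6.06 to 53.4 on the other 8 arrays, and Adipoq, adiponectin, at 127 and 254 on those arrays and at 4.06 to 60.2 on the rest. The dimmer probe set of Plin1 was at 20.1 and 41.3 on PE replicates 2 and 5, within the range of 9.53 to 48.2 in vehicle rats. Over all 11 adipocyte markers the median was 0.08, 4 had a fold change below 0, and the summed signal was 24614 and 25321 on PE replicates 2 and 5, within the 23359 to 30005 of vehicle rats. The mean of the immediate early and clock genes was 0.84 above the vehicle mean on PE replicate 3, and between -0.23 and 0.10 on the other PE arrays.

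**Figure D3:**
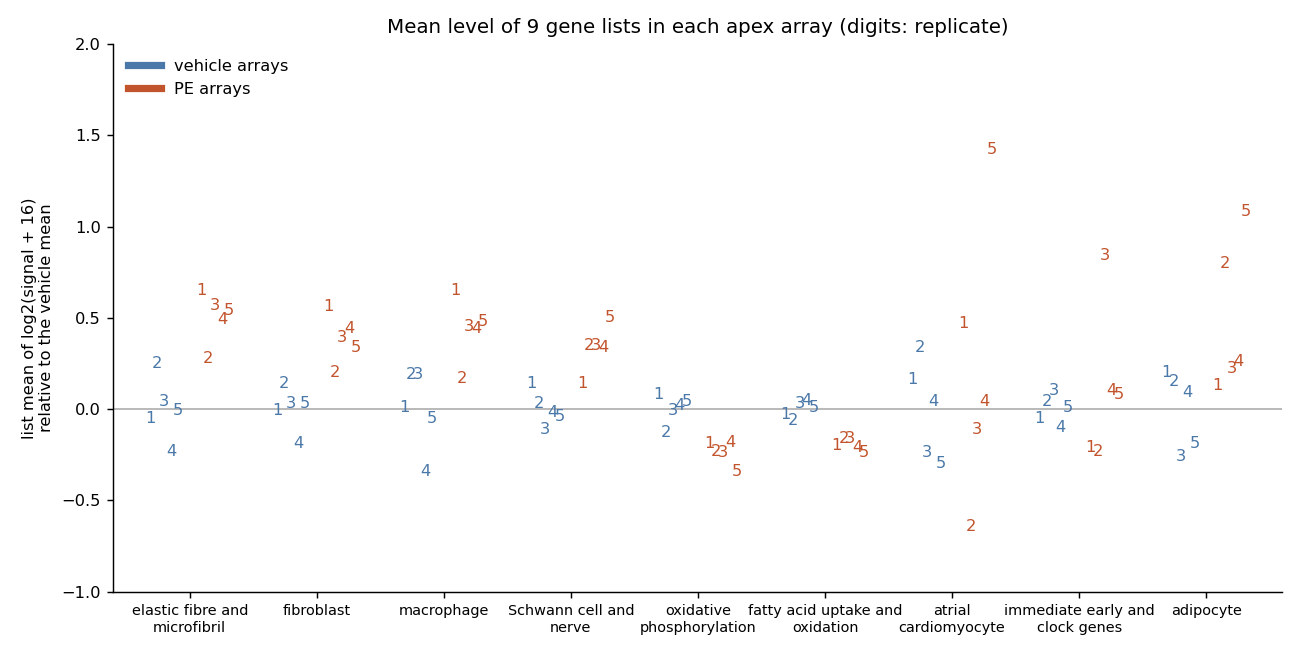
Mean log2(signal + 16) of 9 gene lists on each apex array, relative to the mean of the vehicle arrays (0 on the axis); digits give the replicate number, blue for vehicle and orange for PE. The elastic fibre, fibroblast and both energy lists part the groups on all arrays, the atrial list stands at 1.42 on PE replicate 5, the immediate early list at 0.84 on PE replicate 3, and the adipocyte list at 0.80 and 1.08 on PE replicates 2 and 5.

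Genes of energy production were lower by small amounts. None of the genes of the 3 lists below was called by limma, and 6, 5 and 1 of them were lower at an unadjusted p under 0.05, against 3.1% of all genes. Of 71 subunits of oxidative phosphorylation, the mitochondrial machinery that makes ATP, 70 had a fold change below 0, 25 had all PE arrays below all vehicle arrays and 0 had all above, with a median of -0.23. Of 49 genes of fatty acid uptake and oxidation, 43 had a fold change below 0, 15 were below without overlap and 1 above, with a median of -0.24. Of 20 genes of the citric acid cycle, 6 were below and 0 above, with a median of -0.10. Hadhb, the beta subunit of the trifunctional protein of fatty acid oxidation, measured 38961, 32785, 34287, 38645 and 40135 in vehicle and 30501, 28858, 30344, 30268 and 27723 in PE rats (log2 -0.32 ± 0.15, limma adjusted p = 0.655). Slc27a1, a fatty acid transporter, measured 2052, 2292, 2482, 2644 and 2637 against 1961, 1971, 1489.7, 1625 and 2004 (-0.42 ± 0.13, adjusted p = 0.367). Cs, citrate synthase, measured 26286, 26121, 24509, 26681 and 28343 against 22473, 21803, 23644, 22758 and 21826 (-0.23 ± 0.16), but its 3 dimmer probe sets overlapped, at -0.11, -0.02 and 0.28. The subunits Ndufb11 of complex I and Atp5f1d of ATP synthase had -0.32 ± 0.13 and -0.40 ± 0.19, and Suclg1, of the citric acid cycle, -0.27 ± 0.12.

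Some energy genes differed from this pattern. Ucp2, an uncoupling protein of the inner mitochondrial membrane, was the 1 gene of its list that was above without overlap: it measured 2836, 2491, 2858, 2121 and 3029 in vehicle and 4067, 3394, 3915, 4779 and 3892 in PE rats (log2 0.59 ± 0.18, adjusted p = 0.388). Cpt1b, the muscle enzyme that admits fatty acids to mitochondria, overlapped at -0.20 ± 0.24. In glycolysis, 3 of 33 genes were above and 2 below, with the phosphofructokinases on opposite sides: Pfkl, the liver form, had 0.29 ± 0.11 and Pfkm, the muscle form, -0.35 ± 0.23. Slc2a4, the insulin-regulated glucose transporter, had -0.18 ± 0.21. Ckb, the brain form of creatine kinase, measured 409.5, 1117, 1149, 518 and 488 in vehicle and 1887, 1784, 1394, 1376 and 1567 in PE rats (log2 1.23 ± 0.30, adjusted p = 0.231).

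The energy lists hold some of the brightest genes of the array, and bright genes as a whole were lower in PE rats. Among 158 genes with a mean log2 signal above 14, the median was -0.19, 88.6% had a fold change below 0 and 41 had all PE arrays below all vehicle arrays, against 0.234% of the genes up to 6. Within this brightest class, 25 of the 55 genes from the 3 energy lists were below without overlap (45.5%), and 16 of the 103 others (15.5%), and the medians were -0.24 and -0.14. In the class from 12 to 14, the shares were 36.7% of 49 and 8.29% of 627. Under quantile normalization, which gives every array the same distribution, the median of oxidative phosphorylation was -0.08 with 9 genes below without overlap, that of fatty acid oxidation -0.13 with 8, and that of the citric acid cycle -0.05 with 2. With each array centred on its median, oxidative phosphorylation had -0.25 and 36 such genes. The direction of these medians held under each scaling, while the size was set in part by how the brightest signals were treated. Ribosomal proteins went from a median of -0.15 to -0.01 under quantile normalization, and ventricular muscle markers from -0.20 to -0.01.

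**Figure D4:**
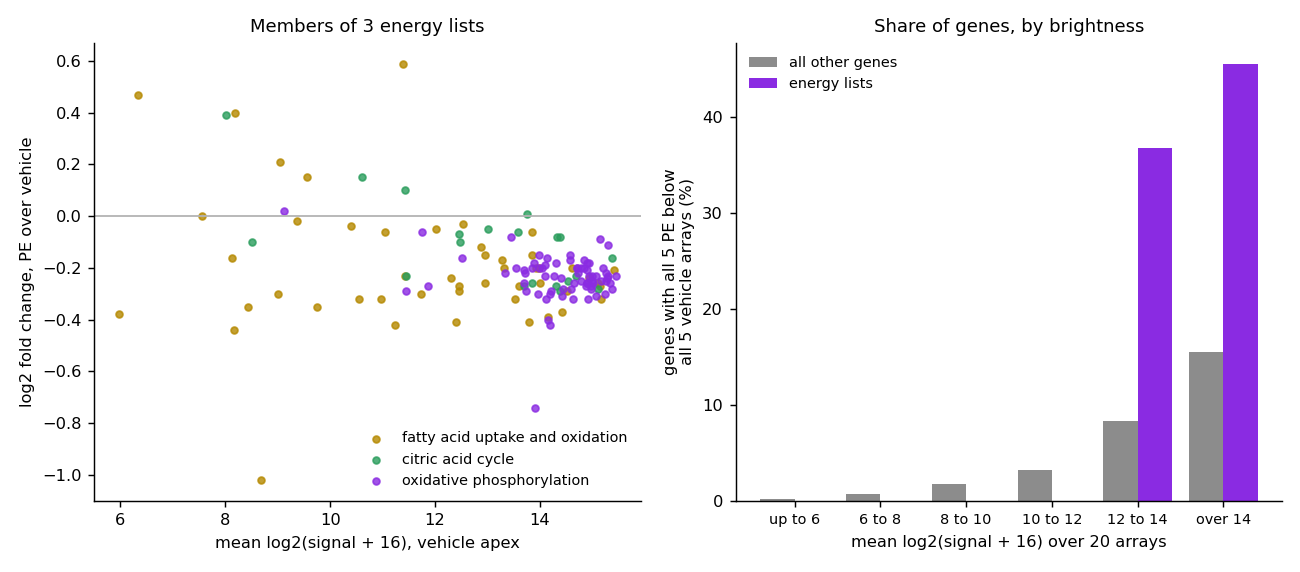
Left, log2 fold change of PE over vehicle against the mean log2(signal + 16) in vehicle rats for each measured gene of 3 energy lists; right, the percentage of genes with all 5 PE arrays below all 5 vehicle arrays in classes of mean log2 signal, for the energy lists (classes with at least 20 such genes) and all other genes. The share rises with brightness for all other genes, to 15.5% above 14, and is 45.5% for the energy genes of that class.

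Of 35 genes of contraction and calcium cycling, 0 were called, 5 were below and 0 above without overlap, 28 had a fold change below 0, and the median was -0.14. Under quantile normalization these became 1 below and 1 above without overlap, 20 below 0 and a median of -0.02, and centring the arrays on their medians gave 9 below without overlap. Ryr2, the calcium release channel, measured 16218, 17403, 17072, 17633 and 19505 in vehicle and 13345, 15072, 14098, 14095 and 15048 in PE rats (log2 -0.29 ± 0.21, limma adjusted p = 0.809), while its dimmer probe set had -0.12. Jph2, which tethers that channel to the surface membrane, measured 5024, 4927, 5441, 5769 and 5167 against 4244, 4214, 3849, 4093 and 3907 (-0.37 ± 0.22). Atp2a2, the calcium pump, overlapped at -0.17 ± 0.19, a sign that turned to 0.03 under quantile normalization. Kcnd3, a channel of the transient outward potassium current, was lower on all 5 PE arrays at a moderate signal (-0.59 ± 0.21, adjusted p = 0.50), with -0.30 and -0.37 for its dimmer probe sets.

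Of 32 vasoactive genes, 3 were above and 1 (Apln) below without overlap, with a median of 0.06. Ace, angiotensin-converting enzyme, measured 245, 347, 279, 199 and 266 in vehicle and 409, 415, 358, 353 and 444 in PE rats (log2 0.56 ± 0.15, limma adjusted p = 0.263). Edn1, the precursor of endothelin 1, a constrictor peptide, measured 111, 91.8, 97.2, 121 and 85.7 against 199.5, 144, 138, 234 and 138 (0.65 ± 0.28, adjusted p = 0.606). Both were free of overlap. Ptgs2, the inducible cyclooxygenase, had 1.22 ± 0.36 with PE replicate 2 inside the vehicle range. Of 54 antioxidant, heat shock and unfolded protein genes, 6 were above and 2 below, led by Gpx3, plasma glutathione peroxidase (0.42 ± 0.10), and Pdia3, a disulphide isomerase of the endoplasmic reticulum (0.49 ± 0.15). The dimmer probe set of Pdia3 had 0.05 ± 0.16 with overlap. The 50 cell cycle genes had a median of 0.07 and 0 without overlap. Of 37 index genes of load, matrix, metabolism and inflammation, 1 was called, 9 had all PE arrays above all vehicle arrays and 1 had all below. Of all genes, 2.19% were on each side, and the index genes were chosen with earlier results known. Of the others, 9 selected genes (Agt, Adrb1, Ppargc1a, Slc2a1, Vegfa, Mstn, Gdf15, Ccl2 and Igf1) had fold changes between -0.32 and 0.23 on the log2 scale. Further overlapping ones lay outside that range, such as Ccn2 (1.17), Col1a1 (0.62), Postn (0.60), Comp (-0.44) and Spp1 (-0.76).

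The last comparison set the apex against the outflow tract of the same treatments. The difference between the PE effects, outflow minus apex, was called for 5567 of 31042 probe sets (17.9%) by limma, and for 3451 of the 14217 genes (24.3%), with 14.1% of genes above 0 and 10.2% below. This fit did not use the pairing of apex and outflow arrays by replicate number. The correlation estimated for arrays paired in this way was 0.0651, and the count of differences with that block is not given here. RNA quality moved with the PE outflow group: the GAPDH ratio was 6.12, 2.20 and 2.34 on its replicates 2, 4 and 5, against at most 1.83 on all arrays outside that group. The differences called numbered 3056 above and 2511 below 0 in the fit of all arrays, 2953 and 2820 with the GAPDH ratio as a covariate, and 3739 and 3388 without replicate 2. Of the 20 higher apex genes, 19 were also called higher in the outflow tract, where 26.3% of all genes were. The 20 genes on each side were picked by their apex p in this same fit, while such shares cover all genes, dim ones included. Counts of these genes in the outflow tract are thus not independent of the apex result. Of the 20 higher genes, 16 had a called difference, each with the larger effect in the outflow tract. The same 16 were called without PE outflow replicate 2. For Pi16, which is among these, the dimmer probe set had 1.58 in the apex and 1.61 in the outflow tract. Its difference of 0.03 ± 0.41 was not called (limma adjusted p = 0.97). The effects of Ccn5 were 2.27 in the apex and 4.94 in the outflow tract (difference 2.67, limma adjusted p = 0.0035), those of Csrp2 0.69 and 3.17 (2.48, adjusted p = 6.05e-06) and those of Tgfb3 0.67 and 2.28 (1.62, adjusted p = 0.000131). Nppa, at 3.78 and 4.58, and Sbsn, at 1.95 and 2.13, had no called difference (0.80 ± 0.67 and 0.18 ± 0.42, adjusted p = 0.48 and 0.825; for Sbsn -0.16 without PE outflow replicate 2), nor had Nppb (1.18 and 0.99). Maoa was the exception among the 20: its effect was 1.13 in the apex and 0.35 in the outflow tract, where it was not called, but the difference of -0.78 was not called either (adjusted p = 0.128).

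Of the 20 lower apex genes, 17 were called lower in the outflow tract, where 18.0% of all genes were, and 10 had a called difference, all 10 also without PE outflow replicate 2. Foxl2 went opposite ways, with -1.33 in the apex and 1.04 in the outflow tract (difference 2.36, limma adjusted p = 0.00374), and Rab30 had -0.55 and 0.09 (0.63, adjusted p = 0.0206). Other genes with opposite signs in the regions were Itga5 (0.41 and -0.31, adjusted p = 0.0122 for the difference), Ucp2 (0.59 and -0.32, adjusted p = 0.0203) and Rcan1 (0.70 and -0.36, adjusted p = 0.0284). Some genes called higher in the outflow tract had apex values near or below 0: Comp had -0.44 and 4.78, Grem1 -0.25 and 3.65, and the brightest probe set of Igf1 0.12 and 1.79 (adjusted p = 7.08e-05, 0.00101 and 9.39e-05). The other 2 probe sets of Igf1 had 0.44 and 0.46 in the apex, one of them without overlap. Fatty acid genes had a median of -0.24 in the apex and -1.54 in the outflow tract, with 42 of 49 called for the difference, and elastic fibre genes 0.37 and 1.83, with 19 of 25.

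**Figure D5:**
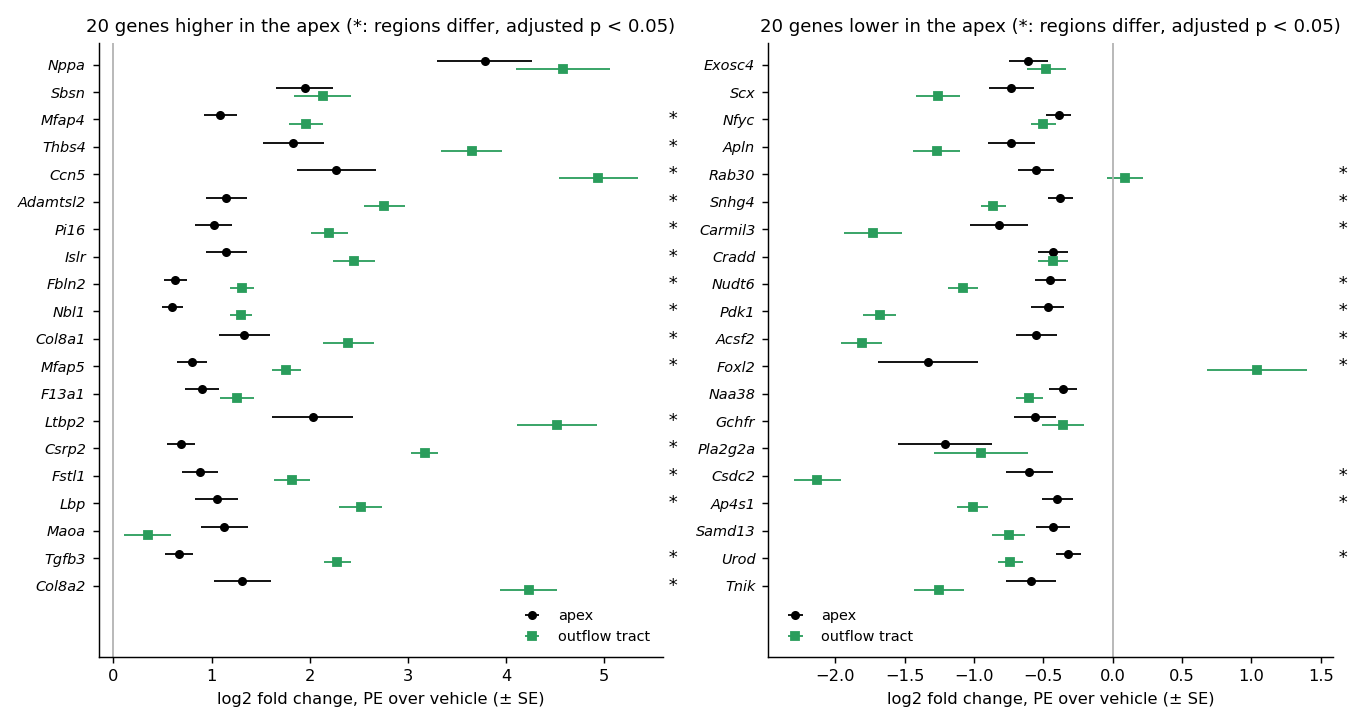
Log2 fold change of PE over vehicle with its SE in the apex (black circles) and in the outflow tract (green squares) for the 20 genes higher and the 20 genes lower in the apex; an asterisk marks a called difference between the regions. The outflow effect is the larger for 19 of the 20 higher genes, Maoa being the exception (without PE outflow replicate 2, Sbsn also has the larger effect in the apex), and Foxl2 has opposite signs in the 2 regions.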

How the data were processed

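Right ventricle RNA was measured on Affymetrix rat arrays, 1 per rat and region, labelled as biological replicates. The deposited values are linear signal intensities, scaled by the authors so that the mean without the outer 2% was 500.2 on every array; the software is not given in the sources used here, and as these are arrays, the number of rats limits the precision. The sample fields describe vehicle in the growth text of all samples, so groups followed the titles. Control probe sets (57) were left out. log2(intensity + 16) of 31042 probe sets was fitted with 4 group means over 20 arrays in limma 3.58.1 (R 4.3.3), with Benjamini-Hochberg adjustment over all probe sets and a threshold of 0.05; the fit was tested on simulated data. Platform annotation gave 20826 probe sets 1 symbol, 436 several and 9780 none; a gene was represented by its brightest probe set (14217 genes). Named were the called genes, the 20 genes with the smallest p in each direction among those without overlap and above log2 8 in an apex group, and genes of the lists. The genes and lists (29 pathways, 16 marker sets, 1182 of 1343 genes measured) were chosen with earlier results of these data known. Upstream sequences came from RefSeq (GRCr8). Alternatives covered scaling, dim probe sets, the added value, the arrays in the fit, variance models, blocks, covariates and single arrays left out. Replicate numbers paired apex with outflow arrays of a treatment (correlation of deviations 0.181 to 0.283) but not vehicle with PE apex arrays (-0.0753 to 0.154).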

Additional observations from a re-analysis of the deposited data

Results flagged for a closer look

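Of 250 groups of 5 arrays examined, for 125 named genes in vehicle and PE rats, 14 held an array far from the other 4 by Dixon's criterion (a gap over 0.71 of the range on the log2 scale), which chance alone gives for about 5%. Vehicle replicate 4 was the low array for Pfkl (signal 610, next 794), Cxcl16 (signal 721, next 1189), Cfd (signal 350, next 535), Csf1r (signal 879, next 1119.8), Cd68 (signal 248, next 416). PE replicate 2 was the low array for Maoa (signal 6567, next 11885), Loxl1 (signal 904, next 1316), Col1a2 (signal 6354, next 8699). The others were Mfap4 in vehicle replicate 2 highest (signal 3966, next 2986), Csrp2 in vehicle replicate 3 highest (signal 512, next 382), Pla2g2a in PE replicate 1 lowest (signal 2578, next 5252), Myl4 in PE replicate 5 highest (signal 6530.0, next 613), Aspn in vehicle replicate 5 lowest (signal 1329, next 2121), Itga5 in PE replicate 3 highest (signal 932, next 816).

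The PE effect differed between the outflow tract and the apex for 78 of the 125 named genes by limma (adjusted p under 0.05), 52 with a difference of outflow minus apex above 0 and 26 below. Over all 14217 genes the share called was 24.3%. The named genes were chosen with earlier results of these data known, so their share is not that of a neutral set. Values in parentheses are the differences of outflow minus apex on the log2 scale, for the brightest probe set of each gene. The greatest differences above 0 were those of Comp (5.22), Grem1 (3.90), Sfrp2 (3.04), Col8a2 (2.92), Ccn5 (2.67), Plin1 (2.66), Ltbp2 (2.50), Csrp2 (2.48), Foxl2 (2.36), Postn (2.21), Aebp1 (2.16), S100b (2.10) and Loxl1 (2.03). Then came Ptgs2 (2.01), Ccn2 (2.00), Itgb4 (1.99), Timp1 (1.90), Thbs4 (1.82), Acta2 (1.70), Igf1 (1.66), Adgre1 (1.62), Tgfb3 (1.62), Adamtsl2 (1.61), Omd (1.58), Itga11 (1.54) and Lbp (1.47). Smaller differences were those of Fbn1 (1.46), Plod2 (1.38), Serpinf1 (1.37), Aspn (1.36), Pmp22 (1.31), Islr (1.29), Tgfb2 (1.28), Mdk (1.26), Cfd (1.20), Pi16 (1.18, but 0.03 for its dimmer probe set), Fap (1.18), Col1a2 (1.10) and P4ha1 (1.09). The smallest were those of Col8a1 (1.06), Cd68 (1.04), Col1a1 (1.03), Mfap5 (0.96), Dpt (0.95), Fstl1 (0.94), C1qc (0.93), Mfap4 (0.87), Nbl1 (0.70), Timp2 (0.68), Fbln2 (0.68), Rab30 (0.63) and Col3a1 (0.54). Below 0 lay Fgf16 (-2.31), Slc2a4 (-1.70), Cpt1b (-1.68), Pfkm (-1.65), Csdc2 (-1.53), Cs (-1.28), Acsf2 (-1.26), Vegfa (-1.24), Ryr2 (-1.21), Pdk1 (-1.20), Suclg1 (-1.18), Jph2 (-1.18) and Atp5f1d (-1.09). Nearer to 0 were Hadhb (-1.08), Ppargc1a (-1.08), Rcan1 (-1.06), Ndufb11 (-1.02), Des (-0.99), Ucp2 (-0.90), Carmil3 (-0.90), Slc27a1 (-0.83), Itga5 (-0.72), Nudt6 (-0.64), Ap4s1 (-0.61), Snhg4 (-0.48) and Urod (-0.41). Without PE outflow replicate 2, 77 of the 78 were called in the same direction, Plin1 being the exception, and 91 of the 125 were called in all. Of all 31042 probe sets, that fit called 3739 above 0 and 3388 below.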

How the results depend on the processing

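The 4 probe sets called higher became 1 under quantile normalization, 15 without the 40% dimmest probe sets, 17 with 64 added, 12 without the PE outflow arrays, 29 (and 1 lower) without PE outflow replicate 2, 23 with an intensity trend and robust variances, 29 (and 2 lower) with array weights, 7 with the GAPDH ratio as a covariate, 20 at an adjusted p under 0.1, and 0 without PE replicate 5 and vehicle replicate 2, where 2086 had an unadjusted p under 0.05. Leaving out single apex arrays gave 1 to 21 higher and 0 to 2 lower. With the replicate number as a block in the apex arrays, whose numbers are not shown to pair the groups, 0 were called by limma and 2839 had an unadjusted p under 0.05. Nppa was called in 21 of 24 alternatives, Sbsn in 13 and Mfap4 in 11. Probe sets without overlap numbered 483 above and 466 below, 607 to 813 and 607 to 762 without single arrays, and 1081 and 955 without PE replicate 5 and vehicle replicate 2; fewer arrays make overlap rarer.

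Under quantile normalization several list medians below 0 came nearer to 0. Among them were contraction -0.02, fatty acid oxidation -0.13, oxidative phosphorylation -0.08, citric acid cycle -0.05, glycolysis -0.03 and energy sensing -0.02. Ribosomal proteins had -0.01, proteasome -0.07, ion channels -0.08 and ventricular muscle markers -0.01. Vasoactive genes had 0.26 without dim probe sets, 0.19 without PE replicate 5 and vehicle replicate 2, and 0.00 to 0.11 without single arrays; TGF-beta had 0.17 with 64 added, 0.26 and 0.18 to 0.26; Wnt had 0.16 as the mean of all probe sets, 0.05 and 0.06 to 0.16. Ion channels had -0.15 without dim probe sets, -0.07 with 64 added and -0.14 to -0.05 without single arrays. Without single arrays, glycolysis ranged from -0.10 to -0.05 and chemokines from 0.06 to 0.20; cardiac transcription factors had 0.05 as the mean of all probe sets.

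Signs turned only for genes near 0. Ankrd1 had 0.09 and Atp2a2 0.03 under quantile normalization, Gdf15 0.02 with 1 added and 0.05 with array weights, Agt -0.00 with array weights, and Grem1 0.02 without PE replicate 5 and vehicle replicate 2. Without single arrays, Grem1 ranged from -0.45 to -0.11, Myh7 from -0.01 to 0.07, Mstn from -0.02 to 0.32, Gdf15 from -0.23 to 0.12, Slc2a1 from -0.05 to 0.16, Adrb1 from -0.14 to 0.33 and Agt from -0.16 to 0.21. The cause was not tested.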
